A study of Mus musculus with 30 samples.

Results

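Described here are 9 genes of the leukemia inhibitory factor (LIF), interleukin-6 (IL-6) family and STAT3 pathway in the uterus of prepubertal mice. They are the ligands Lif, Il6 and Il11, the receptors Lifr, Il6st and Osmr, the transcription factor Stat3, its inhibitor Socs3, and the transcription factor Cebpb. The genes were chosen by name, as probe sets whose only gene symbol is 1 of these 9. They were chosen with earlier results of these data known. Each of the 9 had exactly 1 such probe set, out of 30142 genes tested in all. Uterine RNA was hybridised to whole-transcript arrays of Affymetrix, 30 in all and 3 per group of the 10 groups. All mice were 21-day-old females, either wild type (WT) or a knockout (KO) of estrogen receptor alpha named Ex3aERKO in the labels. Each genotype had a vehicle group, given 100 ul of saline into the abdominal cavity and sampled after 24 h. It had 2 groups given 250 ng of estradiol (E2) in 100 ul of saline, sampled at 2 h or at 24 h. It also had 2 groups given insulin-like growth factor 1 (IGF1), each injection being 50 ug in PBS: 1 sampled at 2 h after 1 injection, the other at 24 h after injections at 0, 8 and 16 h. No vehicle group was sampled at 2 h and none received PBS, so every 2 h change against vehicle also holds the time after injection. The labels give no strain and do not say how the deletion was made, whether the WT mice were littermates, or whether the 3 samples of a group came from separate animals. The p-values therefore measure only the spread between these samples.

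LIF binds its receptor LIFR, which pairs with gp130, the product of Il6st, to signal. IL-6 and IL-11 use gp130 with receptor chains of their own, and oncostatin M signals through gp130 paired with LIFR or with the product of Osmr. The JAK kinases bound to these receptors phosphorylate STAT3, which enters the nucleus and switches on genes, among them Socs3, whose product shuts the receptor down. In the adult mouse uterus, LIF made by the glands under nidatory estrogen is needed for the embryo to implant. The transcription factor C/EBP beta, the product of Cebpb, is needed there for the stroma to decidualize. The mice measured here were neither adult nor pregnant. The groups allow the response of these genes to E2 and to IGF1 to be compared between uteri with and without estrogen receptor alpha.

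Levels are log2 values as deposited, so a difference of 1 is a doubling, and levels of different genes are not compared. Olfactory receptor genes (1225 of them) gave the background floor of each array, their 95th percentile, which lay between 5.69 and 6.57. Changes are differences of group means ± standard error (SE), n = 3 arrays against 3, and a gene was called at a limma adjusted p below 0.05. Esr1, the gene of estrogen receptor alpha, lay between 11.44 and 12.73 on the WT arrays and between 9.38 and 10.41 on the KO arrays, with no overlap; its probe set may lie outside the deleted part. WT vehicle replicate 1 stood apart: Xist, which is expressed in female cells, was at 10.16 on it and between 17.01 and 18.12 on the other 29 arrays. The Y-linked Kdm5d (5.13) and Uty (4.86) were not above the floor of that array (6.50). Its mean correlation with the other arrays of its group (0.975) and its array weight (0.166) were the lowest of the 30. KO E2 24 h replicate 2 had the second lowest weight, 0.259. The neutrophil genes S100a8 and S100a9 both lay above 11 on WT IGF1 2 h replicate 2, KO E2 2 h replicate 2, KO IGF1 2 h replicate 3 and KO IGF1 24 h replicate 2. Epithelial markers (9 to 10 of 10 above the floor on each array), stromal markers (7 of 7), smooth muscle markers (7 of 7) and endothelial markers (6 of 6) were present on every array. Of 6 ovarian markers, 0 to 2 were above the floor.

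The stretches just upstream of the genes that were called after E2 are printed to show what lies there. RefSeq promoters on GRCm38.p6 were found for all 9 genes, 11 in all, and the 250 bases before each transcription start were searched on both strands. The motifs were the STAT site TTCNNNGAA, the AP-1 site TGANTCA, the cyclic AMP response element TGACGTCA and the palindromic estrogen response element GGTCANNNTGACC. Each reads the same on both strands, and no match overlapped another. Capitals mark a match.
Lif, chr11:4257318-4257567, plus strand: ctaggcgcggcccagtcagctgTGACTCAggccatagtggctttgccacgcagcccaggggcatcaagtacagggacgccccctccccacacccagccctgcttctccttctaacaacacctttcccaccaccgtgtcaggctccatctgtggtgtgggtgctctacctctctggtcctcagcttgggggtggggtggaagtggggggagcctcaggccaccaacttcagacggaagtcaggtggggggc
Stat3, chr11:100939541-100939790, minus strand: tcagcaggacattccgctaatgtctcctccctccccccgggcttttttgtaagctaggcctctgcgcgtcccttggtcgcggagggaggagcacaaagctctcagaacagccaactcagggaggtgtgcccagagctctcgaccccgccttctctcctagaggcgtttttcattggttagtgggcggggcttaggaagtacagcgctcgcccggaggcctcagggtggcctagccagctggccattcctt
Osmr, chr15:6874314-6874563, minus strand: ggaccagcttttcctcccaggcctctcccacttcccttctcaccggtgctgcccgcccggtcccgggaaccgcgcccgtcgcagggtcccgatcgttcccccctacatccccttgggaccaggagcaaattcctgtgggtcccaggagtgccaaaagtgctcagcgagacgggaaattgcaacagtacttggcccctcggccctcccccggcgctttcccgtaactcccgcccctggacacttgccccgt
Cebpb, chr2:167688665-167688914, plus strand: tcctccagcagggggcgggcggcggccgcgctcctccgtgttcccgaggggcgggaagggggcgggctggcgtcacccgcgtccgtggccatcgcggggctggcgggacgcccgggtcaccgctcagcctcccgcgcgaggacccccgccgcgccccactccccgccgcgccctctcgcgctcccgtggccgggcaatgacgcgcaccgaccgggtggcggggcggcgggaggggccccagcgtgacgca
Socs3, chr11:117969367-117969616, minus strand: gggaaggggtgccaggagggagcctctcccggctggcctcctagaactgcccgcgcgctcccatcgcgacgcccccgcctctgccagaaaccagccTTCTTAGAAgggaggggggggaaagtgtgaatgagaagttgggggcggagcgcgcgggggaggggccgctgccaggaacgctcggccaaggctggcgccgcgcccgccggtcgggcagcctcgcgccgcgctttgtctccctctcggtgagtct

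The Lif promoter held 1 AP-1 match, TGACTCA, from 228 to 222 bases before the start. The Socs3 promoter held 1 STAT match, TTCTTAGAA, from 154 to 146 bases before the start. Il6 and 1 of the 2 Il11 promoters each held the AP-1 match TGAGTCA, at 249 to 243 and at 98 to 92 bases before the start. The Stat3, Osmr, Cebpb, Il6st and Lifr promoters held none of the 4 motifs. No cyclic AMP or estrogen response element of these letters was found in the 11 promoters. Among 32544 RefSeq promoters of this length, 7.04% held the STAT site, 6.73% the AP-1 site, 1.55% the cyclic AMP response element and 0.0645% the estrogen response element. A match is a string of letters and not evidence that a factor was bound.

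The 9 genes fell into those well above background and those at its edge. Lifr, Il6st, Osmr, Stat3 and Cebpb were above the floor on 30 of 30 arrays. Lif was above it on 4 arrays: the 3 WT arrays at 2 h of E2, and WT E2 24 h replicate 2. Il6 was above it on 1 array, KO IGF1 2 h replicate 3. Il11 and Socs3 were above it on 0 of 30 arrays, so their values bound a level and their changes lie within background. In whole-tissue RNA, fewer cells of a type and less RNA per cell cannot be told apart.

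**Figure D1:**
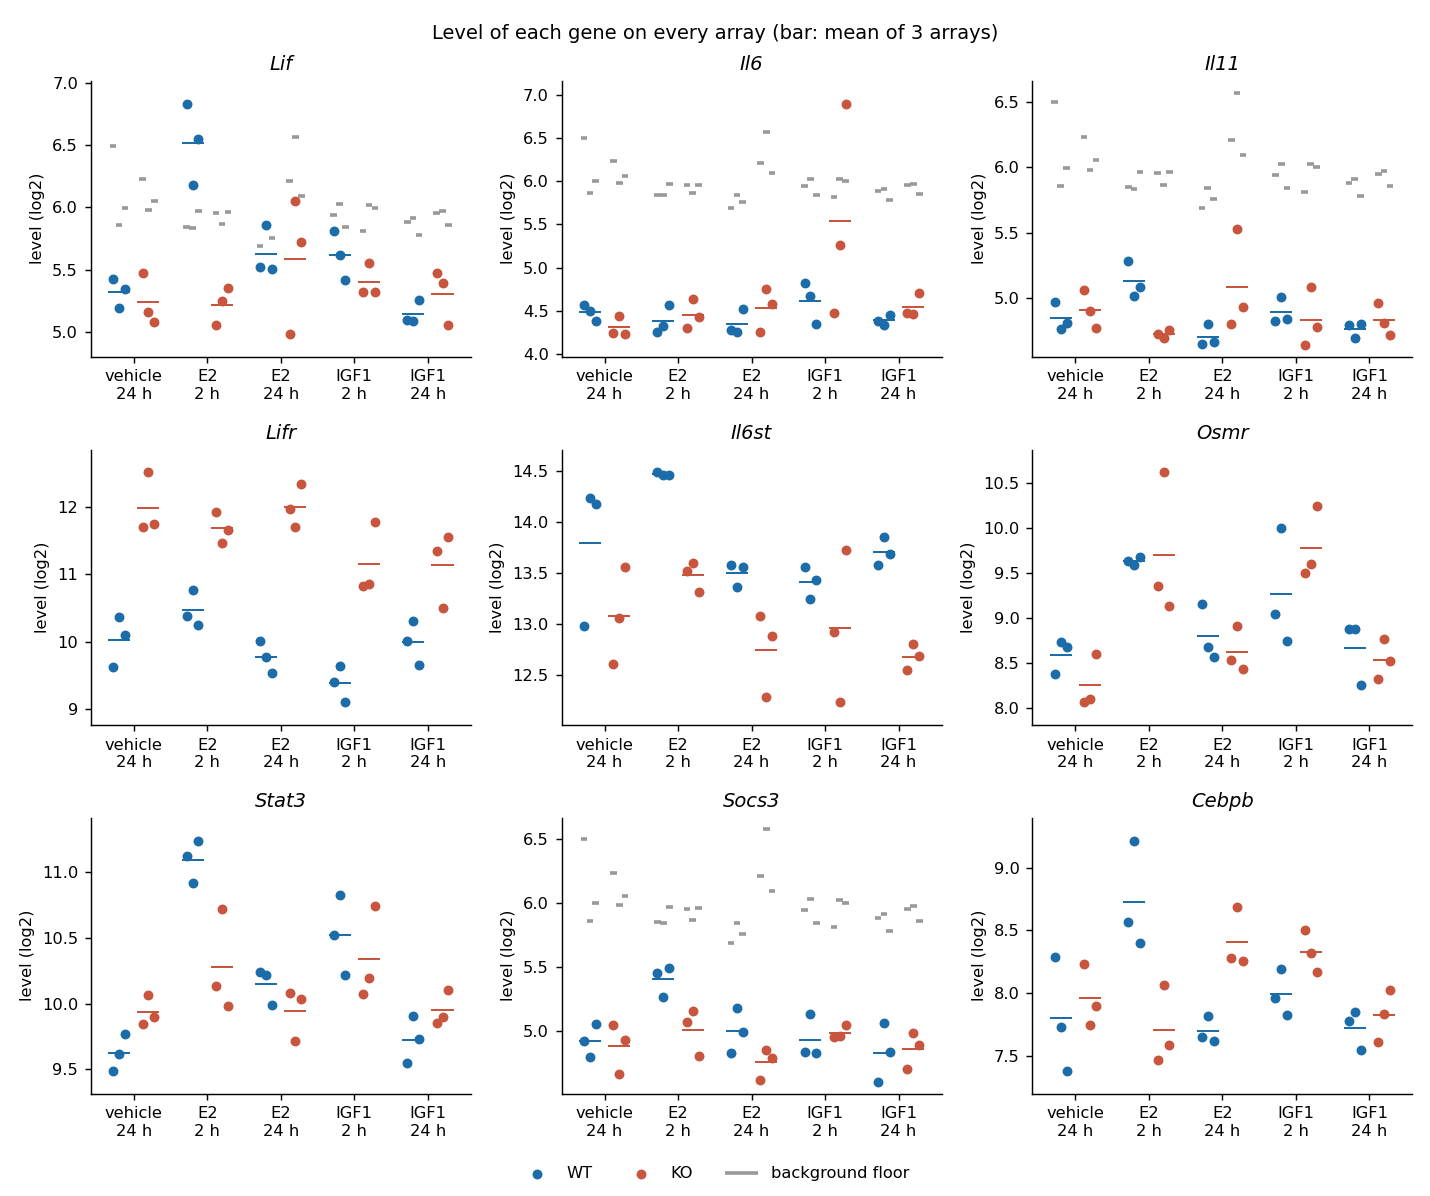
Each panel shows 1 gene; the vertical axis is its level (log2, a scale of its own per panel), the horizontal axis the treatment and time, points are single arrays (WT blue, KO red), bars are means of 3 arrays and grey dashes the background floor of each array where it falls within the panel. Lif rises above the floor in WT at 2 h of E2, Stat3 is highest there too, the KO arrays of Lifr lie above the WT arrays in every condition, and Il11 and Socs3 stay under the floor.

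At 2 h after E2, the WT uterus had more RNA of the ligand Lif, the receptor gene Osmr and the transcription factors Stat3 and Cebpb than at 24 h after vehicle. In all, 5 of the 9 genes were called, every one of them higher, against a background of 19% of all genes called in this contrast. The fifth was Socs3, below the floor. The median change of the 9 genes was 0.67, and that of all genes -0.09. In KO, only Osmr was called in the same contrast, where 0.365% of all genes were called.

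Lif was the ligand that moved. Its level in WT was 5.42, 5.19 and 5.35 on the vehicle arrays and 6.83, 6.18 and 6.55 at 2 h of E2. All 3 E2 arrays lay above all 3 vehicle arrays, none of which reached the floor. The measured change was 1.20 ± 0.20 (limma adjusted p = 1.02e-04, means 6.52 and 5.32), and against the floor the rise was at least 1.32-fold. In KO the vehicle arrays read 5.48, 5.16 and 5.08 and the E2 arrays 5.05, 5.25 and 5.35, all under the floor and overlapping, with a change of -0.02 ± 0.20 (limma adjusted p = 0.977). The measured change differed between the genotypes by -1.22 ± 0.29 (limma adjusted p = 0.0075); 3 of the 4 groups in this difference lie under the floor, so its size is not exact. Without WT vehicle replicate 1 the WT change was 1.25 (limma adjusted p = 3.62e-04) and the difference between genotypes -1.27 (limma adjusted p = 0.0099).

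Il6 and Il11, the other ligands, were not called. Il6, a cytokine of inflammation and the acute phase, lay between 4.26 and 4.56 at 2 h of E2 in WT and between 4.38 and 4.56 on vehicle. Il11, whose signal is needed for decidualization in adult mice, was at 5.28, 5.01 and 5.09 at 2 h of E2 in WT and at 4.97, 4.77 and 4.81 on vehicle. These did not overlap, yet the change of 0.28 ± 0.14 lay within background and was not called (limma adjusted p = 0.204); it was called with arrays centred on their medians (0.39, limma adjusted p = 0.0204), with quantile normalization (0.39, limma adjusted p = 0.0133) and with array weights (0.33, limma adjusted p = 0.0066).

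Among the receptors, Osmr, the oncostatin M receptor chain, was the only one called. Its WT level was 8.37, 8.73 and 8.68 on vehicle and 9.63, 9.59 and 9.69 at 2 h of E2. The E2 arrays were close together and above all vehicle arrays, a change of 1.04 ± 0.32 (limma adjusted p = 0.021). That call was lost without WT vehicle replicate 1 (0.93, limma adjusted p = 0.0853), without WT E2 2 h replicate 1 (1.04, limma adjusted p = 0.0572) and without WT E2 2 h replicate 3 (1.02, limma adjusted p = 0.0626). In KO the vehicle arrays read 8.07, 8.10 and 8.60 and the E2 arrays 9.36, 10.62 and 9.14. The KO change was 1.45 ± 0.32 (limma adjusted p = 0.0419), with no overlap, and it did not differ detectably from the WT change (difference 0.41 ± 0.45, limma adjusted p = 0.75). The KO call was lost without KO E2 2 h replicate 2 (0.995, limma adjusted p = 0.317), without KO vehicle replicate 1 (1.36, limma adjusted p = 0.213) and without KO vehicle replicate 2 (1.37, limma adjusted p = 0.155).

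Lifr and Il6st, the 2 chains of the LIF receptor, were not called at 2 h of E2. Il6st was at 14.48, 14.46 and 14.45 in WT after E2 and at 12.98, 14.23 and 14.17 on vehicle. All E2 arrays lay above all vehicle arrays, but the low vehicle value is that of replicate 1 and the change was 0.67 ± 0.30 (limma adjusted p = 0.139). Lifr was at 10.38, 10.77 and 10.25 after E2 and at 9.63, 10.37 and 10.10 on vehicle, which overlap (0.43 ± 0.29, limma adjusted p = 0.349).

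Stat3, the transcription factor that carries the signal of all these receptors, had the largest change in WT of the 5 genes above the floor on all arrays. It was at 9.49, 9.62 and 9.77 on vehicle and at 11.12, 10.92 and 11.24 at 2 h of E2. The groups lay far apart, by 1.47 ± 0.19 (2.77-fold, limma adjusted p = 2.72e-06). In KO it was at 9.85, 10.06 and 9.90 on vehicle and at 10.14, 10.72 and 9.98 after E2, where the groups overlap and the change was 0.34 ± 0.19 (limma adjusted p = 0.474). The change differed between the genotypes by -1.13 ± 0.26 (limma adjusted p = 0.0074). Without WT vehicle replicate 1 the WT change was 1.40 (limma adjusted p = 3.79e-05) and the difference between genotypes -1.06 (limma adjusted p = 0.0188). The highest KO value, 10.72, was on KO E2 2 h replicate 2, the array high in S100a8 and S100a9; without the 4 arrays high in these genes the difference between genotypes was -1.35 (limma adjusted p = 1.72e-04).

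Cebpb, whose product acts in decidualization and in acute-phase responses, was at 8.29, 7.73 and 7.38 on WT vehicle and at 8.57, 9.21 and 8.40 after E2. All E2 arrays lay above all vehicle arrays, by 0.93 ± 0.22 (limma adjusted p = 0.0028). In KO it was at 8.23, 7.74 and 7.90 on vehicle and at 7.47, 8.07 and 7.59 after E2, a change of -0.25 ± 0.22 (limma adjusted p = 0.663). The difference between genotypes was -1.18 ± 0.30 (limma adjusted p = 0.0162). That difference was lost without KO vehicle replicate 1 (-1.04, limma adjusted p = 0.0529), without WT E2 2 h replicate 2 (-0.93, limma adjusted p = 0.0564) and without WT vehicle replicate 3 (-0.97, limma adjusted p = 0.0589). Without WT vehicle replicate 1 the WT change was 1.17 (limma adjusted p = 4.40e-04).

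Socs3, the feedback inhibitor of gp130, was at 4.92, 4.79 and 5.05 on WT vehicle and at 5.45, 5.26 and 5.49 after E2. The groups did not overlap and the change of 0.48 ± 0.14 was called (limma adjusted p = 0.0135), but all 6 values lie under the floor and no fold is given. The call was lost without WT E2 2 h replicate 1 (0.45, limma adjusted p = 0.0532), without WT E2 2 h replicate 3 (0.43, limma adjusted p = 0.0631) and without WT vehicle replicate 2 (0.41, limma adjusted p = 0.0622).

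**Figure D2:**
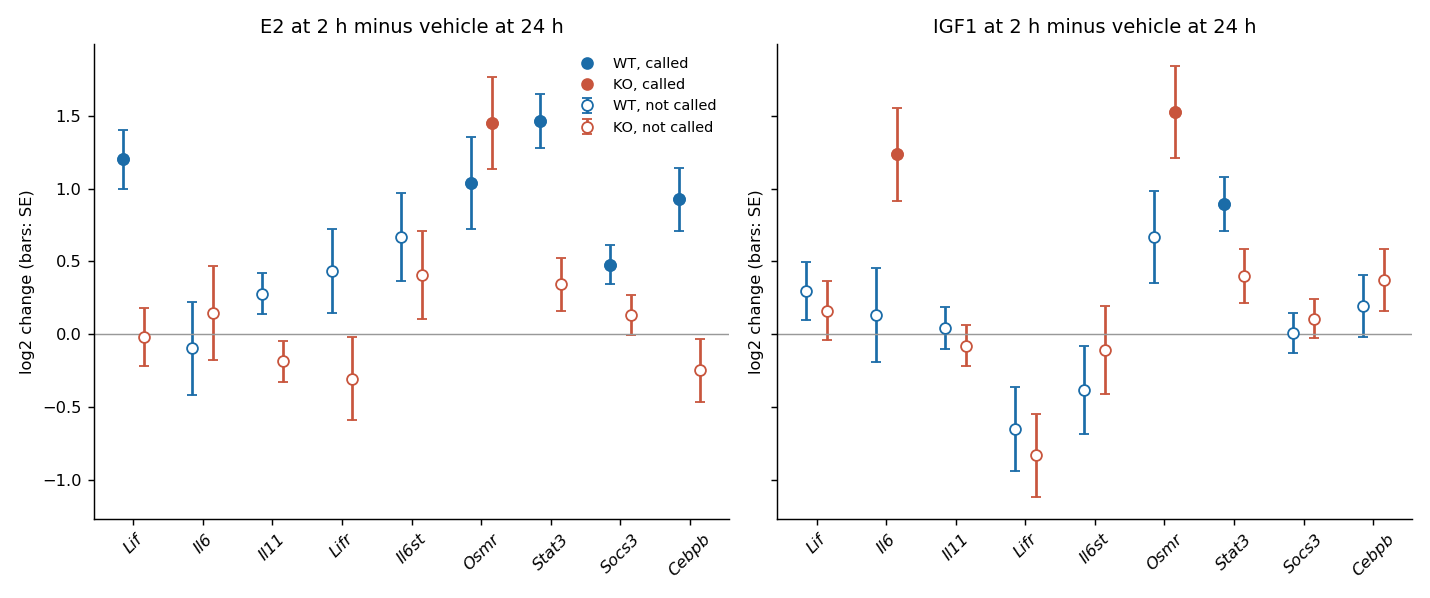
The vertical axis is the log2 change from vehicle at 24 h to E2 (left) or IGF1 (right) at 2 h, the horizontal axis the 9 genes; points are limma estimates from 3 arrays against 3, bars their SE, WT in blue and KO in red, filled where called at a limma adjusted p below 0.05. After E2, Lif, Stat3 and Cebpb lie high in WT (1.20, 1.47 and 0.93) and lower in KO (-0.02, 0.34 and -0.25), while Osmr lies high in both genotypes (1.04 and 1.45).

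Of the 9 genes, 3 (Lif, Stat3 and Cebpb) thus had a change at 2 h of E2 that differed between WT and KO, all 3 smaller in KO, where 8% of all genes were called for such a difference. The comparison of KO with WT at 2 h of E2, which does not use the vehicle arrays, called 6 of 9 genes, where 17.9% of all genes were called. Lif was lower in KO by -1.31 ± 0.20 (at least 1.51-fold, limma adjusted p = 3.93e-05), Stat3 by -0.81 ± 0.19 (limma adjusted p = 0.0024) and Cebpb by -1.02 ± 0.22 (limma adjusted p = 0.0013). In each of these 3 genes all KO arrays lay below all WT arrays, a separation that was not counted over all genes. Each of the 3 calls held in all 15 alternative settings. Il6st was lower by -0.99 ± 0.30 (limma adjusted p = 0.0227); leaving out KO E2 2 h replicate 1 or 3, or any of the 3 WT arrays, put its limma adjusted p between 0.0519 and 0.0801. Socs3 was lower by -0.39 ± 0.14 within background (limma adjusted p = 0.048), and was not called without KO replicate 1 or 3 or WT replicate 1 or 3 (-0.29 to -0.42, limma adjusted p 0.0747 to 0.237). Lifr was higher by 1.21 ± 0.29.

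Markers of other cell types moved in the same contrasts. In WT at 2 h of E2, 5 of 7 stromal markers were lower (median -1.79), and 1 of 10 epithelial markers was higher (median 0.10). In this contrast 19% of all genes were called. The summed level of the stromal list was 17.82 to 17.98 after E2 and 17.90 to 18.81 on vehicle, and that of the epithelial list 14.00 to 14.58 and 14.01 to 14.71. The neutrophil list was at 8.825 to 8.998 after E2 and at 8.76 to 9.29 on vehicle, with 2 to 3 of 8 markers above the floor in both, and 0 of 8 were called. The summed adipocyte list was at 9.99, 12.89 and 10.71 after E2 and at 9.62 to 10.52 on vehicle, with 0 of 6 markers called. Its highest array there, WT E2 2 h replicate 2, also had the highest Cebpb level of the 30 arrays (9.21). On WT IGF1 2 h replicate 2, where the adipocyte list was at 15.08, Cebpb was at 8.19. The part of the stromal and adipocyte markers in the changes of the 9 genes was not tested.

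By 24 h after E2, of the 9 genes only Stat3 was called against vehicle in WT, where 30.1% of all genes were called. Its level was 10.24, 10.22 and 9.99, above all 3 vehicle arrays and below all 3 arrays at 2 h. The change was 0.52 ± 0.19 (limma adjusted p = 0.0357). That call was lost without WT vehicle replicate 1 (0.46, limma adjusted p = 0.125) or 2 (0.52, limma adjusted p = 0.0653), without WT E2 24 h replicate 1 (0.48, limma adjusted p = 0.102) or 2 (0.49, limma adjusted p = 0.0955), and with quantile normalization (0.18, limma adjusted p = 0.522). Il6st was not called (-0.30 ± 0.30, limma adjusted p = 0.482). It was called lower with array weights (-0.63, limma adjusted p = 0.0051) and with quantile normalization (-0.90, limma adjusted p = 0.0351). In the same contrast 8 of 10 epithelial markers were higher (median 2.22). Their summed levels were 16.56 to 16.77 at 24 h of E2 and 14.01 to 14.71 on vehicle. Of 7 smooth muscle markers 2 were higher, and of 7 stromal markers 2 were higher and 1 lower. Their part in the levels of the 9 genes was not tested.

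The direct comparison of 24 h with 2 h of E2 in WT called 6 of 9 genes, every one lower at 24 h, where 27.4% of all genes were called in either direction. In the same contrast 9 of 10 epithelial markers (median 2.04), 6 of 7 stromal markers (median 2.04) and 1 of 7 smooth muscle markers were higher at 24 h, and 2 of 5 lymphocyte markers were lower. The summed epithelial level was 16.56 to 16.77 at 24 h and 14.00 to 14.58 at 2 h, and the stromal level 17.98 to 18.06 and 17.82 to 17.98. Their part in the fall of the 6 genes was not tested. Lif was at 5.52, 5.86 and 5.51 at 24 h, where only replicate 2 was above the floor; the measured difference of -0.90 ± 0.20 (limma adjusted p = 0.0014) is thus taken against a group mostly at background. Stat3 was down by -0.94 ± 0.19 (limma adjusted p = 3.45e-04) and Cebpb, at 7.65, 7.81 and 7.62, by -1.03 ± 0.22 (limma adjusted p = 6.54e-04). These 3 held in all 14 alternative settings. Il6st was at 13.57, 13.36 and 13.56, all below the 2 h arrays, down by -0.97 ± 0.30 (limma adjusted p = 0.0182); this call was lost without WT E2 24 h replicate 2 (-0.90, limma adjusted p = 0.0651) and without WT E2 2 h replicate 1 (-0.96, limma adjusted p = 0.0502). Il11 (-0.42 ± 0.14) and Socs3 (-0.40 ± 0.14) were also called, within background. The Il11 call was lost without either of WT E2 24 h replicates 1 and 3 or of WT E2 2 h replicates 1 and 3, and so was the Socs3 call, with changes of -0.32 to -0.44 and limma adjusted p of 0.0549 to 0.142. Osmr was lower by -0.84 ± 0.32 (limma adjusted p = 0.0522), which missed the threshold; without WT E2 24 h replicate 1 it was called (-1.01, limma adjusted p = 0.0388).

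In KO, 0 of the 9 genes were called at 24 h of E2 against vehicle, where 0% of all genes were called by limma. At an unadjusted p below 0.05, 1 of the 9 and 3735 of all 30142 genes passed, and no alternative setting called any of the 9. Against 2 h of E2, KO arrays at 24 h were lower in Osmr by -1.08 ± 0.32 (limma adjusted p = 0.0384) and higher in Cebpb by 0.70 ± 0.22 (limma adjusted p = 0.045), where 9.42% of all genes were called. The Cebpb call was lost without KO E2 24 h replicate 2 (0.56, limma adjusted p = 0.239) and without any of the 3 KO arrays at 2 h (0.58 to 0.88). The Osmr call was lost without any of the 3 KO arrays at 24 h (-0.98 to -1.22) and without KO E2 2 h replicate 1 (-1.25, limma adjusted p = 0.0645) or 2 (-0.62, limma adjusted p = 0.199). Without KO E2 24 h replicate 1, Lif (0.67, limma adjusted p = 0.0276) and Il11 (0.50, limma adjusted p = 0.036), both under the floor in KO, were called as well. The genotype difference of the 24 h change was called in 0 of 9 genes by limma (0 at an unadjusted p below 0.05 and in every alternative setting), where 22.1% of all genes were called.

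After IGF1, Stat3 was the gene of the set that was called in WT, and Osmr the one well above background that was called in KO. In WT at 2 h of IGF1, 1 of 9 genes was called, where 17.2% of all genes were called. With array weights Lifr (-0.81, limma adjusted p = 0.0064), Il6st (-0.70, limma adjusted p = 0.0026) and Cebpb (0.46, limma adjusted p = 0.0359) were called too. That setting called 8595 of all 30142 genes, against 5178 in the main fit. Stat3 was at 10.52, 10.82 and 10.22, above all vehicle arrays, a change of 0.90 ± 0.19 (limma adjusted p = 0.0012). It held in all 16 alternative settings, at 0.83 without WT vehicle replicate 1 (limma adjusted p = 0.0082) and at 0.74 without the 4 arrays high in S100a8 and S100a9 (limma adjusted p = 0.0017). In KO, Stat3 was at 10.07, 10.20 and 10.75, above its vehicle arrays, with a change of 0.40 ± 0.19 (limma adjusted p = 0.221). The difference of the 2 changes was -0.49 ± 0.26 (limma adjusted p = 0.776), so the Stat3 response to IGF1 was not shown to differ between the genotypes.

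Osmr was at 9.50, 9.61 and 10.25 at 2 h of IGF1 in KO, all above its vehicle arrays, a change of 1.53 ± 0.32 (limma adjusted p = 0.0052). In WT it was at 9.05, 10.003 and 8.74, also above vehicle, with a change of 0.67 ± 0.32 (limma adjusted p = 0.162). The difference was 0.86 ± 0.45 (limma adjusted p = 0.765). In all, 2 of 9 genes were called in KO, where 7.13% of all genes were called. The other was Il6, at 4.47, 5.27 and 6.89, of which only replicate 3 was above the floor; its change was 1.24 ± 0.32 (limma adjusted p = 0.0209). Without KO vehicle replicate 1 the Il6 change was 1.21 (limma adjusted p = 0.0622), without KO vehicle replicate 3 it was 1.20 (limma adjusted p = 0.0605), and without KO IGF1 2 h replicate 3 and the other 3 arrays high in S100a8 and S100a9 it was 0.56 (limma adjusted p = 0.0614).

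Lifr was at 10.83, 10.86 and 11.77 on the same KO arrays, with a change of -0.83 ± 0.29 that was not called (limma adjusted p = 0.0824). Only replicate 3 lay among the vehicle arrays, and without it Lifr was lower by -1.14 (limma adjusted p = 0.0104).

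The arrays highest in Osmr were arrays high in neutrophil genes. The 3 highest Osmr levels of the 30 arrays were 10.62 on KO E2 2 h replicate 2, 10.25 on KO IGF1 2 h replicate 3 and 10.003 on WT IGF1 2 h replicate 2. S100a8 was at 13.73, 11.45 and 14.26 on these, and the single Il6 value above the floor was on the second. On the other 2 arrays with S100a8 above 11, both of 24 h, Osmr was lower: 8.77 on KO IGF1 24 h replicate 2 (S100a8 15.00) and 8.53 on KO E2 24 h replicate 1 (S100a8 11.63). The summed neutrophil list ranged from 8.68 to 15.29 within KO E2 2 h, from 9.63 to 12.45 within KO IGF1 2 h, from 9.48 to 15.27 within WT IGF1 2 h and from 8.77 to 9.62 on KO vehicle. Of its 8 markers, 1 to 6 were above the floor on these arrays, and Mpo and Elane, which mark granulocyte precursors, were not above it on any. Other lists stood out on these arrays too. WT IGF1 2 h replicate 2 had the highest summed adipocyte level of the 30 arrays (15.08, against 9.62 to 10.52 on WT vehicle), and KO E2 2 h replicate 2 the highest macrophage level (12.77, against 10.53 to 11.24 on KO vehicle). The part of these cell types in the Osmr levels was not tested. Without the 4 arrays, the Osmr change at 2 h of IGF1 in KO was 1.30 (limma adjusted p = 2.80e-04) and that at 2 h of E2 in KO 0.995 (limma adjusted p = 0.0675). At 2 h of E2 in WT, where no array was high in S100a8, the Osmr arrays lay within 9.59 to 9.69.

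**Figure D3:**
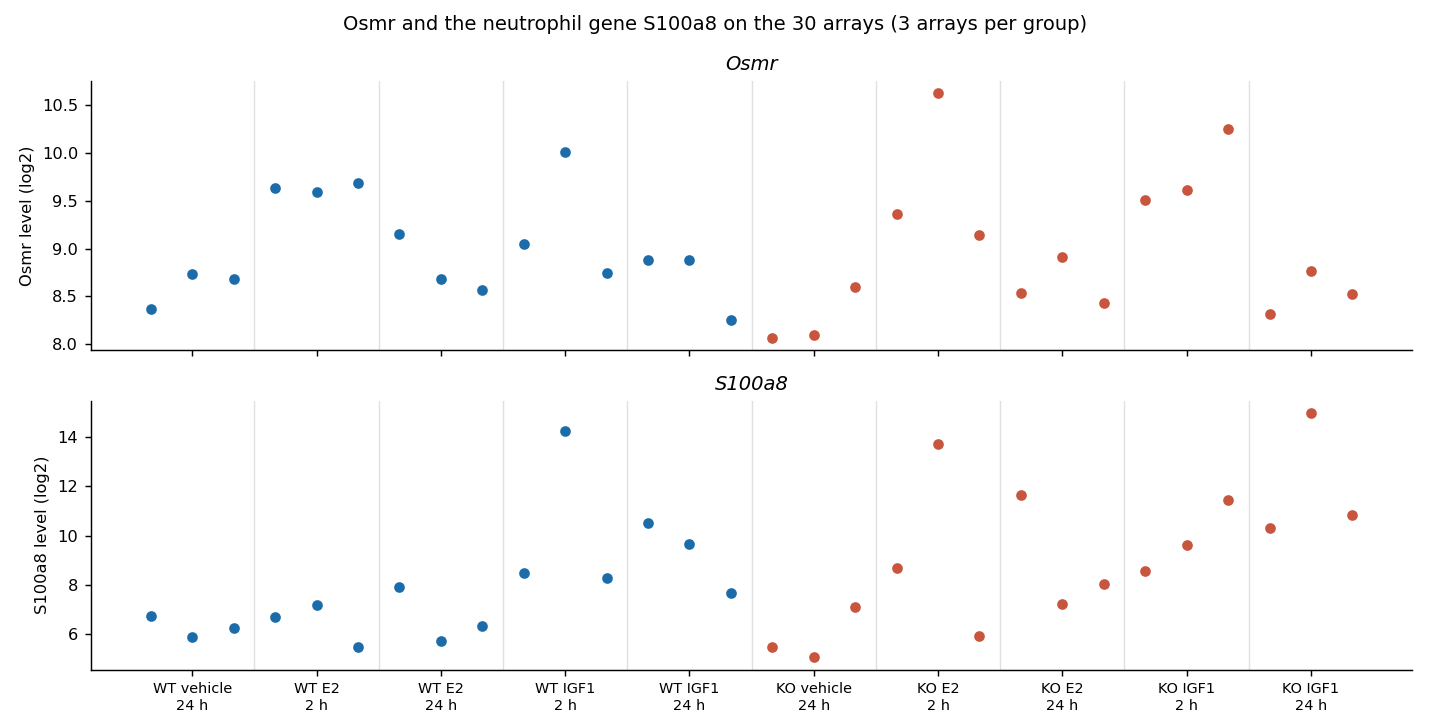
The upper panel shows the level of Osmr and the lower that of the neutrophil gene S100a8 (both log2) on each of the 30 arrays, ordered by group along the horizontal axis, with 3 arrays per group, WT in blue and KO in red. The 3 highest Osmr points (10.62, 10.25 and 10.003) are on arrays with S100a8 above 11, while the WT E2 2 h arrays are high in Osmr with S100a8 between 5.46 and 7.17.

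At 24 h, after 3 injections of IGF1, 0 of 9 genes were called against vehicle in WT by limma (0 at an unadjusted p below 0.05 and in every alternative setting), where 4.28% of all genes were called. In KO, 0 of 9 were called where 13.6% of all genes were. The nearest to the threshold was Lifr, at 11.34, 10.50 and 11.56, below all 3 KO vehicle arrays (-0.85 ± 0.29, limma adjusted p = 0.0505); 1 of 9 passed an unadjusted p below 0.05, and up to 2 were called in other settings. Lifr was called without KO vehicle replicate 1 (-0.99, limma adjusted p = 0.0466) and without KO IGF1 24 h replicate 3 (-1.06, limma adjusted p = 0.0355). Between 2 h and 24 h of IGF1, Stat3 fell in WT by 0.80 ± 0.19 on the log2 scale (limma adjusted p = 0.0043), where 14.5% of all genes were called, and this held in all 15 alternative settings. In KO, Osmr fell by 1.25 ± 0.32 on the log2 scale (limma adjusted p = 0.014), where 8.98% were called; the call was lost without KO IGF1 24 h replicate 1 (-1.14, limma adjusted p = 0.0594) and without KO IGF1 2 h replicate 3 (-1.01, limma adjusted p = 0.0623). The genotype difference of the IGF1 change was called in 0 of 9 genes at 2 h and at 24 h by limma and in every alternative setting (1 and 0 at an unadjusted p below 0.05), where 0.0133% and 0.00664% of all genes were called.

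Set directly against each other at 2 h in WT, E2 gave higher levels than IGF1 in 5 of 9 genes, where 5.57% of all genes were called. These arrays include no vehicle, but saline and PBS differ between them. Lif was higher by 0.91 ± 0.20 (at least 1.499-fold, limma adjusted p = 0.0052), and this call was lost only without WT E2 2 h replicate 1 (0.75, limma adjusted p = 0.0571). Lifr was higher by 1.08 ± 0.29 (limma adjusted p = 0.0225), Il6st by 1.06 ± 0.30 (limma adjusted p = 0.0373), Cebpb by 0.73 ± 0.22 (limma adjusted p = 0.044) and Socs3, within background, by 0.47 ± 0.14 (limma adjusted p = 0.0399). In each of these 5 all E2 arrays lay above all IGF1 arrays, a separation that was not counted over all genes. The latter 4 are close to the threshold: each was lost when 1 of several arrays was left out, and with any 1 of the 6 arrays left out Il6st was not called (limma adjusted p 0.0707 to 0.14). Lifr was lost without WT E2 2 h replicate 1 or 2 or WT IGF1 2 h replicate 1 or 3, as Cebpb was, and Socs3 without WT E2 2 h replicate 1 or 3 or WT IGF1 2 h replicate 1 or 3. Stat3 was 0.57 ± 0.19 higher after E2 (limma adjusted p = 0.0794), and 0.72 higher without WT IGF1 2 h replicate 2 (limma adjusted p = 0.0365).

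In KO at 2 h, 0 of 9 genes were called between E2 and IGF1 by limma, where 3.04% of all genes (916) were called. At an unadjusted p below 0.05, 2 of the 9 passed. Without the 4 arrays high in S100a8 and S100a9, 2 were called, Cebpb at -0.88 (limma adjusted p = 0.0403) and Lifr at 0.95 (limma adjusted p = 0.0432). In that setting the calls over all genes rose too, to 2584 of 30142. Without KO IGF1 2 h replicate 1, 1 was called, Il6 at -1.63 (limma adjusted p = 0.014). At 24 h in WT, 0 of 9 were called (2 at an unadjusted p below 0.05 and 0 in every alternative setting), where 10.1% were. At 24 h in KO, Lifr was higher after E2 by 0.87 ± 0.29 (limma adjusted p = 0.0353), where 21.5% were called. That call was lost without KO E2 24 h replicate 1 (0.88, limma adjusted p = 0.0583) or 3 (0.70, limma adjusted p = 0.117) and without KO IGF1 24 h replicate 2 (0.55, limma adjusted p = 0.202).

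Lifr, the gene of the LIF receptor, was higher in KO than in WT in every condition measured. On vehicle it was at 11.70, 12.51 and 11.75 in KO and at 9.63, 10.37 and 10.10 in WT. The groups were far apart, by 1.95 ± 0.29 (3.87-fold, limma adjusted p = 2.22e-04), and Lifr was the only 1 of the 9 genes called between the genotypes on vehicle, where 2.92% of all genes were called. Without WT vehicle replicate 1 the difference was 1.75 (limma adjusted p = 0.0026). With E2 it was 1.21 ± 0.29 at 2 h (limma adjusted p = 0.0035) and 2.22 ± 0.29 at 24 h (limma adjusted p = 1.79e-06), with 11.96, 11.70 and 12.34 in KO against 10.01, 9.78 and 9.54 in WT. These 3 calls held in all 15 alternative settings each. After IGF1 for 2 h it was 1.77 ± 0.29 (limma adjusted p = 9.61e-04), with 10.83, 10.86 and 11.77 against 9.40, 9.64 and 9.11, where Lifr was again the only 1 of the 9 called and 1.95% of all genes were called. Without KO IGF1 2 h replicate 1, Il6 was called there too (1.47, limma adjusted p = 0.0031).

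At 24 h of IGF1 the Lifr difference was 1.14 ± 0.29 (limma adjusted p = 0.0296), with 11.34, 10.50 and 11.56 in KO against 10.01, 10.31 and 9.66 in WT, where 2.86% of all genes were called. The groups did not overlap here either, but the call was lost without KO replicate 1 (1.04, limma adjusted p = 0.144) or 3 (0.93, limma adjusted p = 0.178) and without WT replicate 1 (1.15, limma adjusted p = 0.0721) or 3 (0.98, limma adjusted p = 0.142). Over all conditions, the 15 KO arrays lay between 10.50 and 12.51 and the 15 WT arrays between 9.11 and 10.77. The lowest KO array and the highest WT array, WT E2 2 h replicate 2, thus crossed, though they are of different conditions.

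**Figure D4:**
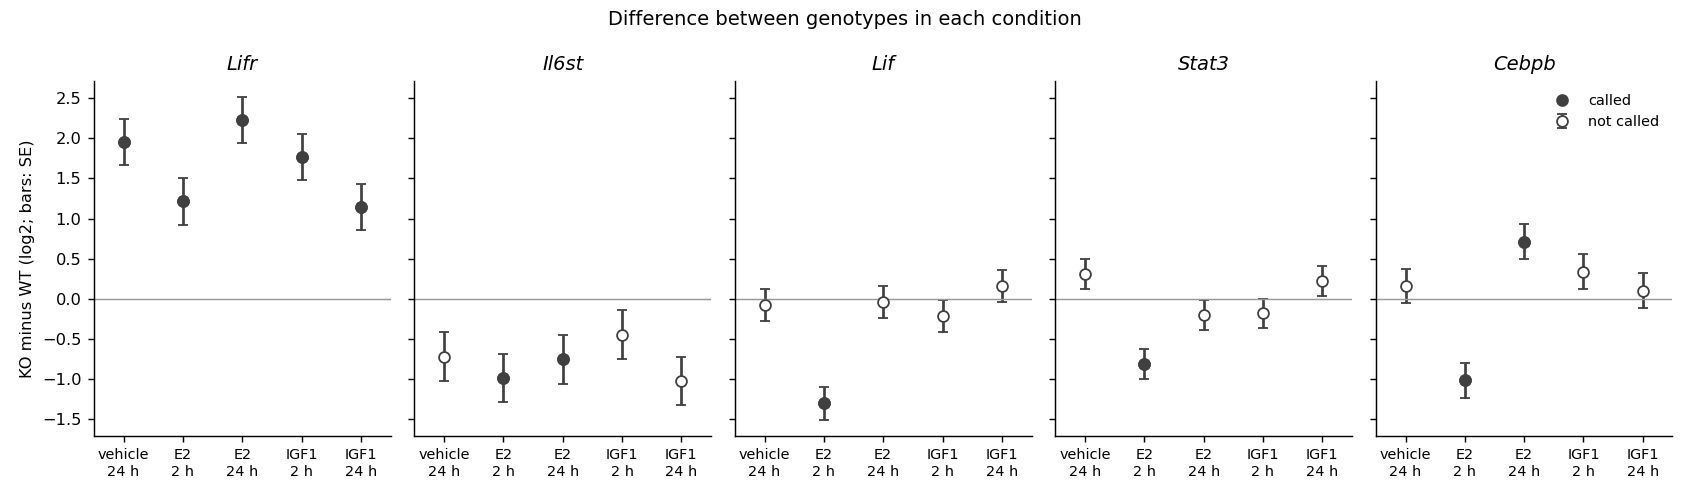
The vertical axis is the KO minus WT difference (log2), the horizontal axis the condition, for 5 genes in separate panels; points are limma estimates from 3 arrays against 3, bars their SE, filled where called at a limma adjusted p below 0.05. Lifr is above 0 in all 5 conditions (1.14 to 2.22), Il6st below 0 in all 5 (-0.45 to -1.02), and Lif and Stat3 leave 0 as called differences only at 2 h of E2.

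Il6st, the gp130 chain that all these receptors share, had lower mean levels in KO in every condition, but it was called in 2 of 5. The differences were -0.72 ± 0.30 on vehicle (limma adjusted p = 0.282), -0.99 ± 0.30 at 2 h of E2 (called), -0.75 ± 0.30 at 24 h of E2 (limma adjusted p = 0.0442, called), -0.45 ± 0.30 at 2 h of IGF1 (limma adjusted p = 0.608) and -1.02 ± 0.30 at 24 h of IGF1 (limma adjusted p = 0.0704). The vehicle arrays were at 12.60, 13.05 and 13.55 in KO and at 12.98, 14.23 and 14.17 in WT. Only replicate 1 of WT lies among the KO arrays, and without it the difference was -1.13 (limma adjusted p = 0.031). At 24 h of E2 the call was lost without KO replicate 2 (-0.52, limma adjusted p = 0.225) or 3 (-0.82, limma adjusted p = 0.0558) and without any WT array (-0.72 to -0.82), and with quantile normalization the difference was -0.01 (limma adjusted p = 0.986).

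At 24 h of E2, 4 of 9 genes were called between KO and WT, where 47% of all genes were called. Besides Lifr and Il6st these were Cebpb and Il11. Cebpb was at 8.28, 8.68 and 8.25 in KO and at 7.65, 7.81 and 7.62 in WT, a difference of 0.71 ± 0.22 (limma adjusted p = 0.0102) that had the opposite sign at 2 h of E2. It was lost without KO E2 24 h replicate 2 (0.57, limma adjusted p = 0.067). Il11 was 0.38 ± 0.14 higher within background (limma adjusted p = 0.0327), lost without KO E2 24 h replicate 2 (0.16, limma adjusted p = 0.328), without WT E2 24 h replicate 1 (0.36, limma adjusted p = 0.0868) or 3 (0.36, limma adjusted p = 0.0851), and with quantile normalization (0.07, limma adjusted p = 0.648). In this contrast the median of all genes was 0.18 rather than 0, and 0.02 with arrays centred on their medians.

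In every condition but 24 h of E2, some epithelial markers were called higher in KO, as Lifr was. On vehicle 5 of 10 epithelial markers were called higher in KO and 0 lower (median 1.33), with a summed level of 15.25 to 15.96 in KO and of 14.01 to 14.71 in WT. At 2 h of E2, 7 of 10 were higher, and at 2 h and 24 h of IGF1 3 and 5 of 10. Of all genes, 2.92% were called on vehicle, 17.9% at 2 h of E2, and 1.95% and 2.86% at 2 h and 24 h of IGF1. At 24 h of E2, where the Lifr difference was largest, 0 of 10 epithelial markers were higher and 5 were lower in KO, with a summed level of 14.71 to 16.15 in KO and of 16.56 to 16.77 in WT. In the same contrast 7 of 7 smooth muscle markers were lower in KO (median -2.01). Their summed levels were 15.48 to 17.62 in KO and 18.86 to 19.04 in WT. There 3 of 5 lymphocyte markers and 2 of 6 adipocyte markers were higher, against 47% of all genes called in either direction. Of the 5 lymphocyte markers, 1 to 2 were above the floor on these arrays, and the median of all genes was 0.18. Of 7 stromal markers, 0 were called on vehicle by limma, with summed levels of 17.65 to 18.31 in KO and 17.90 to 18.81 in WT. At 2 h of E2 5 were higher in KO, and at 24 h of E2 5 were lower. At 24 h of IGF1 1 was higher and 2 were lower, with summed levels of 16.17 to 16.63 in KO and 18.17 to 18.69 in WT. The part of these cell types in the differences of Lifr, Il6st and Cebpb was not tested.

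Ordered by group mean, the 5 KO groups held the first 5 places for Lifr and the 5 WT groups the last 5, from KO E2 24 h (12.00 ± 0.32, SD, n = 3) to WT IGF1 2 h (9.38 ± 0.27). No neighbours in this order were free of overlap. For Stat3 the order began with WT E2 2 h (11.09 ± 0.16), WT IGF1 2 h (10.52 ± 0.30), KO IGF1 2 h (10.34 ± 0.36) and KO E2 2 h (10.28 ± 0.39), the 4 groups sampled at 2 h. It ended with WT vehicle (9.62 ± 0.14), and the only neighbours that did not overlap were the first and second. Osmr likewise had the 4 groups of 2 h first, from KO IGF1 2 h (9.79 ± 0.40) to WT IGF1 2 h (9.26 ± 0.66), and KO vehicle last (8.25 ± 0.30), with overlap between all neighbours. As vehicle was sampled only at 24 h, the share of time after injection in this order cannot be told apart from that of the agents.

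For Il6st the order ran from WT E2 2 h (14.46 ± 0.01) over WT vehicle (13.79 ± 0.71) to KO IGF1 24 h (12.68 ± 0.13). Neighbours did not overlap between the first and the second place and between WT IGF1 24 h (13.70 ± 0.14) and WT E2 24 h (13.50 ± 0.12). Cebpb was highest in WT E2 2 h (8.73 ± 0.43), followed by KO E2 24 h (8.41 ± 0.24) and KO IGF1 2 h (8.33 ± 0.17), and lowest in WT E2 24 h (7.70 ± 0.10), with overlap between all neighbours. Lif was highest in WT E2 2 h (6.52 ± 0.33), the only group whose 3 arrays all passed the floor, and did not overlap with the next group, WT E2 24 h (5.63 ± 0.20); the other 9 group means, down to 5.14 ± 0.10 in WT IGF1 24 h, lay under the floor.

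The genes most like each member were sought among 6319 genes above the floor, by Pearson correlation of the 10 group means, which share their arrays; no test is attached. Lif was closest to the kallikrein genes Klk1b8 (r = 0.971) and Klk1b24 (r = 0.969), which are near-identical copies that may share probes. Inhbb, an inhibin and activin subunit, was as close (r = 0.971). Only the WT E2 2 h mean of Lif lay above the floor, so every r of Lif rests largely on that group. Lifr was closest to Plag1, a zinc finger transcription factor (r = 0.958), to Sox1ot (r = 0.946) and to Cyp26a1, which breaks down retinoic acid (r = 0.944). Il6st was closest to Aebp1 (r = 0.948), the TGF-beta co-receptor Tgfbr3 (r = 0.948) and Ing3 (r = 0.947). Osmr was closest to the adhesion molecule Icam1 (r = 0.904), Klf9 (r = 0.899) and Ivns1abp (r = 0.897). Stat3 was closest to the nuclear pore gene Nup153 (r = 0.966), the amino acid transporter Slc7a6 (r = 0.963) and Agpat2 (r = 0.960), and Cebpb to Pex13 (r = 0.923), Bloc1s4 (r = 0.918) and Wac (r = 0.909). Among the members themselves, the highest r was 0.88, for Cebpb and Il11, the latter within background. Stat3 had an r of 0.84 with Socs3, also within background, and of 0.82 with Lif, and Lif of 0.81 with Socs3. Lifr and Il6st had an r of -0.54, where KO had the higher Lifr mean and the lower Il6st mean in every condition. Within WT the means of Lifr and Il6st had the same order: E2 2 h, vehicle, IGF1 24 h, E2 24 h and IGF1 2 h. The arrays of all neighbours in it overlapped for Lifr. Within KO the orders differed. There Lifr ran E2 24 h, vehicle, E2 2 h, IGF1 2 h and IGF1 24 h. Il6st ran E2 2 h, vehicle, IGF1 2 h, E2 24 h and IGF1 24 h.

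The rest of the pathway was read from 5 lists. Of 14 other ligands and receptors of the IL-6 family, 11 had a probe set of their own and only 4 were above the floor in any group mean. In WT at 2 h of E2, where 19% of all genes were called, 1 of 11 was called, Cntfr, the ciliary neurotrophic factor receptor, higher by 0.71 ± 0.18 (limma adjusted p = 0.0049); the list median was 0.03 and that of all genes -0.09. Il6ra, the receptor chain that makes a cell sensitive to IL-6, was not called there but rose at 2 h of E2 in KO by 0.77 ± 0.13 (limma adjusted p = 0.0051), at 2 h of IGF1 in WT by 0.85 ± 0.13 and at 2 h of IGF1 in KO by 0.71 ± 0.13. Its change at 2 h of E2 was greater in KO than in WT by 0.91 ± 0.18 (limma adjusted p = 0.0021). On vehicle, KO exceeded WT in Cntfr by 0.91 ± 0.18 and in Clcf1, a ligand of that receptor, by 1.21 ± 0.22 (limma adjusted p = 0.0017), as 2 of the 11, where 2.92% of all genes were called.

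Among kinases, other STATs and inhibitors of signalling, 23 of 25 were measured. In WT at 2 h of E2, 11 rose and 1 fell, 12 of 23 against 19% of all genes called (median 0.35, all genes -0.09). Those of largest change were Ptpn1, a phosphatase that acts on JAK kinases, by 2.15 ± 0.14, Stat5a by 1.85 ± 0.09, Stat5b by 1.40 ± 0.14 and Socs7 by 1.31 ± 0.28. In KO 1 of 23 was called against 0.365% of all genes, Ptpn1 at 0.67 ± 0.14 (limma adjusted p = 0.0356). The change was smaller in KO for 5 of 23, against 8% of all genes called in either direction, among them Stat5a (-1.81 ± 0.13, limma adjusted p = 1.225e-09), Ptpn1 (-1.48 ± 0.20), Stat5b (-1.18 ± 0.20) and Ptpn2 (-0.97 ± 0.27). Without WT vehicle replicate 1, 9 rose and 2 fell in WT. After 2 h of IGF1, 9 of 23 rose in WT and 6 in KO, with 0 lower in either, against 17.2% and 7.13% of all genes called, led by Socs7 (1.33 ± 0.28 and 1.15 ± 0.28), Socs5 (1.21 ± 0.17 in WT) and Ptpn2 (0.998 ± 0.19 in KO); without WT vehicle replicate 1 it was 6 in WT.

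Of 19 genes known to be induced through STAT3, 17 were measured, all above the floor in some group. At 2 h of E2 in WT, 10 rose and 0 fell (median 0.90), against 19% of all genes called, led by the angiogenic factor Vegfa at 4.38 ± 0.46, the repressor Bcl6 at 2.28 ± 0.36, the kinase Pim1 at 1.92 ± 0.24 and the hypoxia factor Hif1a at 1.53 ± 0.19; without WT vehicle replicate 1, 8 rose. In KO 1 of 17 was called against 0.365% of all genes, Bcl6 at 1.63 ± 0.36 (limma adjusted p = 0.042), and without the 4 arrays high in S100a8 and S100a9, 0 were. The list median in KO was still 0.61. The change was smaller in KO for 5 of 17, against 8% of all genes called in either direction, among them Vegfa (-4.15 ± 0.65), Myc (-1.52 ± 0.38), Pim1 (-1.17 ± 0.34) and Hif1a (-1.05 ± 0.27). With IGF1 for 2 h, 8 rose and 1 fell in WT, and 8 rose and 0 fell in KO, against 17.2% and 7.13% of all genes called, Vegfa by 3.17 ± 0.46 and 2.30 ± 0.46. At 24 h of E2 in WT, 4 of 17 rose and 0 fell, a share under the 30.1% of all genes called, with the iron-binding protein gene Lcn2 first at 3.61 ± 0.64. Most of these genes have other inducers as well, so the list does not measure STAT3 activity.

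At 2 h after E2, WT mice had more RNA of 2 of the 5 other C/EBP genes, Cebpa by 2.22 ± 0.43 and Cebpg by 0.67 ± 0.21, against 19% of all genes called, and KO mice of 0 (0 of 5 by limma also without the 4 arrays high in S100a8 and S100a9). At 2 h of IGF1, 3 rose in WT (Ddit3 by 1.72 ± 0.38, Cebpa by 1.48 ± 0.43 and Cebpg by 1.43 ± 0.21) and 2 in KO (Ddit3 by 1.35 ± 0.38 and Cebpg by 0.71 ± 0.21), against 17.2% and 7.13% of all genes called. Cebpb itself was not called after IGF1 in either genotype, except with array weights at 2 h in WT (0.46, limma adjusted p = 0.0359). Adipocytes also express Cebpa: the 6 adipocyte markers had a median change of 0.72 at 2 h of E2 and 1.25 at 2 h of IGF1 in WT, with 0 of 6 called by limma, and summed levels of 9.99 to 12.89 and 10.30 to 15.08 against 9.62 to 10.52 on vehicle. Their part in the Cebpa change was not tested.

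Of 16 genes of uterine receptivity and implantation, 15 were measured. At 2 h of E2 in WT, 5 rose and 4 fell, 9 of 15 against 19% of all genes called (median -0.06, all genes -0.09). The largest rises were in Errfi1, an inhibitor of the EGF receptor, by 4.09 ± 0.33, and Hbegf, an EGF receptor ligand, by 3.28 ± 0.27. The largest falls were in Ptch1, the hedgehog receptor, by -3.55 ± 0.47, and Nr2f2, a stromal nuclear receptor, by -2.59 ± 0.18. In KO 1 of 15 was called against 0.365% of all genes, Egfr at 0.89 ± 0.19 (limma adjusted p = 0.0337), and 7 of 15 differed between the genotypes, against 8% of all genes, Errfi1 by -3.65 ± 0.47, Hbegf by -3.54 ± 0.38, Ptch1 by 3.34 ± 0.67 and Nr2f2 by 2.39 ± 0.26 among them. Some genes, such as Hoxa10 and Hand2, stand both in this list and among the stromal markers.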

How the data were processed

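RNA of 30 uterus samples (300 ng of total RNA each, Affymetrix WT Plus kit, per the labels' protocols) was measured on whole-transcript arrays. The values are log2 levels as deposited by the authors, 1 column per sample; how they were computed and normalized, and the build of the array, is not given in the sources used here. Of 72688 probe sets, 32750 were in the annotation used, 30604 of them with 1 symbol; 827 symbols were updated through Entrez identifiers. For 355 genes with several probe sets, the set with the highest mean over all arrays was used, which left 30142 genes. The 9 genes and the pathway and marker lists were chosen with earlier results of these data known.

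All 30 arrays were fitted in 1 limma model (limma 3.58.1, R 4.3.3) with 10 group means, 20 residual degrees of freedom and 25 contrasts, with Benjamini-Hochberg adjustment over all genes of a contrast. Contrasts against vehicle share the vehicle arrays, and contrasts within a genotype or time share other arrays. The floor of an array was the 95th percentile of 1225 olfactory receptor genes. Folds of "at least" set the brighter group's mean against the dimmer group's mean of the floor or its own value, whichever was higher per array. Summed marker levels are log2 of summed linear values. Precision is limited by 3 arrays a group.

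Named were all 9 genes, up to 4 called genes of largest change per list and contrast, and the 3 genes most alike to each member above the floor, among genes whose group means span at least 1. The procedure was tested on simulated data. Alternatives were median centring, quantile normalization, removal of dim genes, averaging the probe sets of a gene, a fit of only the compared groups, a trended robust prior, array weights, a replicate block and leaving out each array. Leaving out 2 arrays that stood apart, or 4 high in S100a8 and S100a9, was chosen after seeing the data. Promoters and figures were made with Python 3.11.15, pandas 2.3.3 and matplotlib 3.10.9.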

Additional observations from a re-analysis of the deposited data

Results flagged for a closer look

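The change at 2 h of E2 against vehicle differed between the genotypes, by the test of that difference itself, in 3 genes. For Lif the measured difference, KO minus WT, was -1.22 (limma adjusted p = 0.0075); 3 of its 4 groups (both vehicle groups and KO at 2 h of E2) lie under the background floor on all arrays, so the size is not exact. For Stat3 it was -1.13 (limma adjusted p = 0.0074) and for Cebpb -1.18 (limma adjusted p = 0.0162). The differences of Lif and Stat3 were called in all 22 alternative settings each, and that of Cebpb in 18 of 22.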

How the results depend on the processing

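Of 225 changes (9 genes in 25 contrasts) 42 were called, 15 of them in every alternative setting run; of the 183 not called, 28 were called in some setting. None of the called changes reversed. With a fit of the compared groups alone, the number of the 9 genes called fell from 5 to 3 for WT E2 2 h against vehicle and for WT E2 against IGF1 at 2 h, and to 0 for KO E2 2 h, KO IGF1 2 h, KO minus WT at IGF1 2 h, KO IGF1 24 h minus 2 h, KO E2 24 h minus 2 h and KO E2 against IGF1 at 24 h. With array weights it was 4 for WT IGF1 2 h, 2 for WT E2 24 h, KO IGF1 24 h, KO minus WT on vehicle and at IGF1 24 h and WT IGF1 24 h minus 2 h, 1 for KO E2 24 h minus 2 h and 0 for KO E2 2 h. Without dim genes (18204 genes kept) it was 2 for KO minus WT at IGF1 24 h and KO E2 against IGF1 at 24 h, and 1 for KO IGF1 2 h, KO IGF1 24 h and KO E2 24 h minus 2 h. Median centring gave 1 for KO E2 24 h minus 2 h and 0 for KO E2 against IGF1 at 24 h, where quantile normalization and the replicate block gave 2; quantile normalization gave 1 for KO IGF1 24 h. Without the 2 arrays that stood apart it was 2 for KO minus WT on vehicle and at E2 24 h, and 0 for WT E2 24 h and KO E2 24 h minus 2 h. Without the 4 arrays high in S100a8 and S100a9 it was 2 for KO E2 against IGF1 at 2 h. Of all genes 2584 were called there, and 916 in the main fit. The number of the 9 called without these arrays was 0 for KO E2 2 h, KO E2 24 h minus 2 h and KO E2 against IGF1 at 24 h. Counts over all genes moved too (main fit in brackets). The fit of the compared groups gave 7 (110) for KO E2 2 h and 0 (2150) for KO IGF1 2 h. It gave 24 (589) for KO minus WT at IGF1 2 h and 131 (2707) for KO IGF1 24 h minus 2 h. For KO E2 it gave 4 (2839) at 24 h minus 2 h and 3288 (6468) against IGF1 at 24 h. Array weights gave 8595 (5178) for WT IGF1 2 h and 1886 (2839) for KO E2 24 h minus 2 h. For KO minus WT they gave 2444 (879) on vehicle and 2536 (862) at IGF1 24 h. The cause was not tested.

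Leaving out 1 array at a time gave 3 to 5 for WT E2 2 h, 0 to 1 for WT E2 24 h, KO E2 2 h and KO IGF1 24 h, and 1 to 3 for KO IGF1 2 h. It gave 4 to 6, 1 to 4, 1 to 2, 0 to 1 and 1 to 2 for KO minus WT at E2 2 h, E2 24 h, IGF1 2 h, IGF1 24 h and on vehicle, and 2 to 3 for the genotype difference of the E2 change at 2 h. It gave 0 to 5 and 0 to 1 for E2 against IGF1 at 2 h in WT and KO, and 0 to 1 at 24 h in KO. For E2 24 h minus 2 h it gave 3 to 6 in WT and 0 to 3 in KO, and for KO IGF1 24 h minus 2 h 0 to 2. Over all genes the same fits called 4303 to 5503 for WT E2 2 h and 28 to 332 for KO E2 2 h. They called 310 to 3900 for KO IGF1 2 h. For E2 against IGF1 at 2 h they called 1178 to 1340 in WT and 34 to 2922 in KO.

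No pairing of the samples by replicate number was detected. Between arrays of different groups, deviations from the group means correlated at a mean r of 0.0063 for the same number (-0.285 to 0.433). For different numbers the mean r was -0.0021. A mean near 0 cannot exclude a pairing among some groups. With the replicate block 5 of 9 genes were called for WT E2 2 h, and 5 rather than 6 for KO minus WT at E2 2 h. The number of all genes called moved by over 1.5 times in 21 of 25 contrasts, from 5731 to between 4303 and 9266 for WT E2 2 h, from 110 to between 7 and 332 for KO E2 2 h, from 2150 to between 0 and 4002 for KO IGF1 2 h and from 879 to between 211 and 2444 for KO minus WT on vehicle. Median centring moved the median of all genes by 0.11 for WT E2 2 h and WT IGF1 2 h, and by -0.17 for KO minus WT at E2 24 h. Signal near the floor limits Lif, Il6, Il11 and Socs3.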
